A study of Homo sapiens with 17 samples.

Results

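The alpha-arrestins are a small family of adaptor proteins that share the arrestin fold, and 5 family genes were followed here: TXNIP, ARRDC1, ARRDC2, ARRDC3 and ARRDC4. The genes were chosen by family name, and TXNIP and ARRDC4 also because they were selected on measured values, their difference between a low and a high dose of emetine at 2 h. All 5 were among the 19222 genes of the 1 h experiment, and 4 of the 5 were among the 9982 genes listed for the 2 h experiment, where ARRDC2 was not listed. TL-seq (TimeLapse sequencing) marks RNA made during a pulse of 4-thiouridine (s4U), because chemical recoding of s4U makes the sequencer read C in place of T.

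HEK-293T cells, a human embryonic kidney line that carries the SV40 large T antigen, were incubated for 1 h with 500 µM s4U alone (untreated, 3 libraries) or with 500 µM s4U and 1.8 µM emetine (3 libraries). Emetine is an alkaloid that blocks translocation of the ribosome along mRNA. 1 further untreated and 1 further emetine library came from cells that were given no s4U. In the 2 h experiment, cells were labeled with 250 µM s4U and were untreated or received emetine at 1.8 µM or 240 µM, with 3 libraries each. All groups came from this 1 line, and no label ties replicates to separate cultures, so p-values measure the spread between libraries, which may be technical. The model tests pool that spread over genes, so a p-value does not measure the spread of 1 gene alone.

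The 8 libraries of the 1 h experiment held between 22246279 and 40018063 reads given to a gene. Emetine replicate 3 stood apart from the rest in level: the SD of its log2 deviations from the group mean was 0.26 across genes, against 0.088 to 0.15 in the other 5 libraries with s4U. In labeling, untreated replicate 1 had the lowest share of reads from RNA made during the hour. This share was 7.84%, against 9.19% to 11.7% in the other 5. Member results are therefore given with and without emetine replicate 3 where the call or the size moved. Of 5 genes expected in HEK-293T cells, all were detected, from 1.80 CPM (PAX2) to 618 CPM (VIM) in untreated cells, where CPM is the read count scaled to library size with TMM factors. Of 5 markers of other cell types, PTPRC and HBB were not listed, ALB and PECAM1 lay at 0.139 CPM and 0.0396 CPM in untreated cells, and the fibroblast marker COL1A1 was at 24.0 CPM. The difference in COL1A1 between treatments was -0.11 on the log2 scale (adjusted p = 0.646, edgeR quasi-likelihood test).

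Alpha-arrestins bridge membrane proteins to ubiquitin ligases. Their PPxY motifs bind the WW domains of NEDD4-family ligases, and the cargo that they present is ubiquitylated and moved into endosomes. TXNIP, thioredoxin-interacting protein, also binds thioredoxin and promotes removal of the glucose transporters GLUT1 and GLUT4 from the cell surface. ARRDC4 is the closest relative of TXNIP and likewise limits glucose uptake, ARRDC3 acts on the beta2-adrenergic receptor and integrin beta4, and ARRDC1 recruits TSG101 to bud small vesicles from the plasma membrane. ARRDC2 is the least studied of the 5. The transcription factors MondoA and MLX bind carbohydrate response elements, pairs of E-box-like sequences, in the promoters of TXNIP and ARRDC4.

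The promoters of the 3 members whose levels differed with emetine are shown, so the choice followed that result. They are the DNA around the start sites of the RNAs measured. Each window runs from 250 bases before to 50 bases after the start site (RefSeq, GRCh38.p14) and is written 5′ to 3′ on the strand of the gene. Capitals mark matches, on either strand, to the E-box-like sequence CACGNG or to the CCAAT box. They also mark the forkhead-like sequence GTAAACA. The AP-1 site TGANTCA and the TATA box, searched as TATAAA, are marked in the same way.
TXNIP, chr1:145996530-145996829, minus strand: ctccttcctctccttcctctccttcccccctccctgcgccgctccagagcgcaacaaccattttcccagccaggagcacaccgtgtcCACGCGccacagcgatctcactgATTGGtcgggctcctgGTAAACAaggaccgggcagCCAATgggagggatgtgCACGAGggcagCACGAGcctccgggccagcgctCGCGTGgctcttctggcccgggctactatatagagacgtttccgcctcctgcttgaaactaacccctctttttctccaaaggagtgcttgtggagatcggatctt
ARRDC4, chr15:97960453-97960752, plus strand: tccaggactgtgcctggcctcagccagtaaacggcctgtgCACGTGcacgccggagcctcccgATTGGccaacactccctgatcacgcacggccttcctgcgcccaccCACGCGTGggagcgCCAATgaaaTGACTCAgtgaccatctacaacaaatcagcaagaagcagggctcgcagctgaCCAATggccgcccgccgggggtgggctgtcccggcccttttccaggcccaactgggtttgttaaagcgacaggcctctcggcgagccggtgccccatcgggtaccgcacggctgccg
ARRDC3, chr5:91383268-91383567, minus strand: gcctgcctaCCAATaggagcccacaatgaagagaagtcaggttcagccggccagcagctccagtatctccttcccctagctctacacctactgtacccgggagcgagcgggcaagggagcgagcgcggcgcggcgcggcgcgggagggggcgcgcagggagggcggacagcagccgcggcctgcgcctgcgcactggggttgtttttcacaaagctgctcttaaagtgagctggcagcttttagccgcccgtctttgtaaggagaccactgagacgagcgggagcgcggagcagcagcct

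In the TXNIP window, 2 copies of CACGAG stood 5 bases apart, at positions -88 to -72 from the start site. Such a pair of CACGNG matches on either strand with a 5-base gap was present in 27 of 35116 promoter windows of the same length (0.0769%), whereas a single CACGNG match was present in 30.5%. The ARRDC4 window held CACGTG at positions -210 to -205 and CACGCG overlapping CGCGTG at -142 to -135, but no such pair, and no match to CACGNG lay in the ARRDC3 window shown. RefSeq gives a further start site for ARRDC3, whose window (chr5:91380048-91380347, not shown) held CACGGG at -193 to -188 and the reverse complement of the forkhead-like sequence, TGTTTAC, at -29 to -23. It also gives a further one for TXNIP (window chr1:145995695-145995994), which held no match to any of the sequences searched, and which start site the reads came from was not tested. CCAAT was matched 2 times in the TXNIP window, 3 times in that of ARRDC4 and 1 time in that of ARRDC3, against 34.6% of all windows with at least 1 match. TXNIP also held GTAAACA at -124 to -118 (3.42% of windows) and ARRDC4 held TGACTCA at -119 to -113 (7.71% of windows), and TATAAA, present in 11.5% of windows, was in none of the 3. Only these exact letters were searched, so a variant such as tatatag in the TXNIP window was not counted. Members not called for level also held matches in their windows, not shown. That of ARRDC2 at chr19:18000874-18001173 held CACGCG at -49 to -44, CGCGTG at -22 to -17 and CACGGG at -13 to -8. It also held the AP-1 match TGATTCA at -121 to -115. The other ARRDC2 window (chr19:18007920-18008219) held TATAAA at -30 to -25 and a CCAAT match, and the ARRDC1 window held only a CCAAT match. A match describes the letters of the window and is not evidence of binding.

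The 5 genes lie on 5 chromosomes. In GENCODE 44 on GRCh38, TXNIP is at chr1:145992435-145996579 on the minus strand, ARRDC1 at chr9:137605685-137615360 on the plus strand, ARRDC2 at chr19:18001132-18014102 on the plus strand, ARRDC3 at chr5:91368631-91383317 on the minus strand and ARRDC4 at chr15:97960703-97973833 on the plus strand. The canonical transcript of each has 8 exons, and its length is 2905 bases for TXNIP, 1556 for ARRDC1, 2501 for ARRDC2, 4239 for ARRDC3 and 4062 for ARRDC4. The last bases of ARRDC1 overlap the antisense gene ARRDC1-AS1, to which 10977 reads were given over the 8 libraries, and ARRDC3 overlaps ARRDC3-AS1, to which 276 reads were given. Whether the counting used the strand is not given in the sources used here, so reads within these overlaps may belong to either gene. GENCODE also places ENSG00000283411 over ARRDC1 on the same strand and ENSG00000279172 over ARRDC2 on the opposite strand. Neither was among the genes of the 1 h experiment.

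In untreated cells, ARRDC1 was the most abundant member per length and ARRDC3 the least. The level of ARRDC1, the vesicle-forming member, was 24.3 ± 0.785 CPM per kilobase of canonical transcript (SD, n = 3), that of TXNIP was 9.61 ± 0.626 and that of ARRDC3 was 1.38 ± 0.111. ARRDC2 at 5.00 ± 0.846 and ARRDC4 at 4.86 ± 0.160 CPM per kilobase overlapped between libraries and did not differ beyond their spread. With emetine the order changed at the top: TXNIP stood at 39.3 ± 1.76 CPM per kilobase and ARRDC1 at 21.2 ± 4.49, followed by ARRDC4 (8.12 ± 1.81) and ARRDC2 (6.95 ± 0.643), whose libraries overlapped, and ARRDC3 (3.01 ± 0.724).

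The 5 members spanned nearly the whole range of turnover in untreated cells. The fraction new, the share of a gene's reads that came from RNA made during the hour, was estimated from how many T positions of a read were converted to C. It was 92.4% ± 0.677 for TXNIP and 87.6% ± 7.52 for ARRDC3 (SD, n = 3), rank 17 and rank 37 from the top among 10763 genes. ARRDC2 was at 48.6% ± 7.84 and ARRDC4 at 36.3% ± 8.17, ranks 568 and 1117, while the median of all genes tested was 12.2%. ARRDC1 was at 2.56% ± 1.19, rank 10438. The ranges of TXNIP and ARRDC3 overlapped, as did those of ARRDC2 and ARRDC4. Within each untreated library, however, TXNIP was above ARRDC3 and ARRDC2 was above ARRDC4, and these differences between genes were not tested. If labeling began with the hour and levels were steady, these fractions correspond to half-lives of 0.268 ± 0.00936 h for TXNIP, 0.332 ± 0.0983 h for ARRDC3, 1.07 ± 0.258 h for ARRDC2 and 1.61 ± 0.513 h for ARRDC4. For ARRDC1 the same formula gave 17.7 h, 29.3 h and 46.1 h in the 3 untreated libraries, estimated from only 11 to 24 reads with 2 or more conversions per library.

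**Figure D1:**
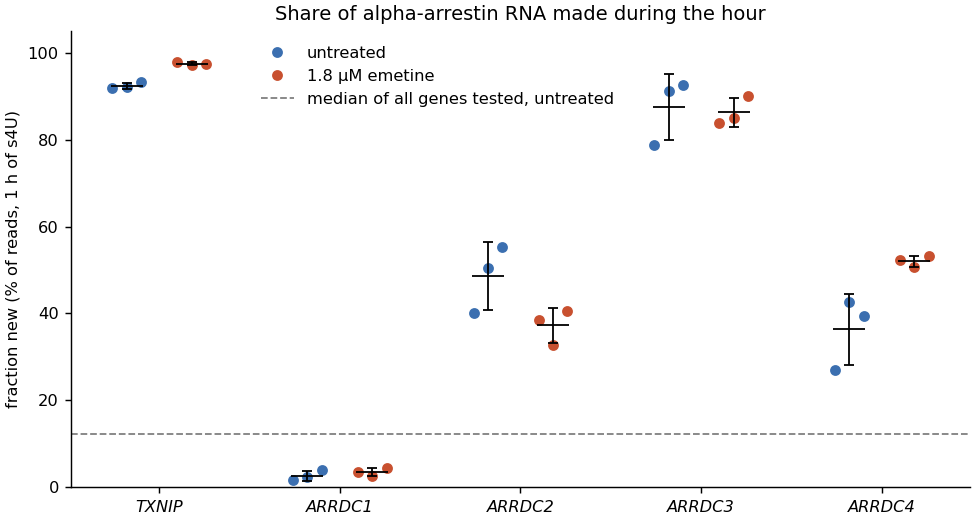
Fraction new (percent of reads) of the 5 alpha-arrestins in the 6 libraries with s4U, with untreated libraries in blue and emetine libraries in red (replicates 1 to 3 from left to right), black bars for the mean ± SD of 3 libraries and a dashed line at the untreated median of all genes tested (12.2%). TXNIP and ARRDC3 sit near the top of the scale and ARRDC1 near 0, and the emetine libraries lie above the untreated ones for TXNIP and ARRDC4 without overlap.

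After 1 h of 1.8 µM emetine, TXNIP, ARRDC3 and ARRDC4 transcripts rose, by about 4.08-fold, 2.19-fold and 1.67-fold, while ARRDC1 and ARRDC2 did not pass the test. Thus 3 of 5 members were called higher and 0 of 5 lower, where 2.64% of the 13776 genes tested were called higher and 0.0436% lower (edgeR quasi-likelihood test, Benjamini-Hochberg adjusted p under 0.05). The median log2 difference was 0.74 over the 5 members and 0.03 over all genes tested. CPM are shares of a library, so a rise of a gene cannot be told apart from a fall of the other RNA. When the libraries were scaled to spike-in reads instead, which moved the median of all genes to 0.71, the TXNIP call held (2.69, adjusted p = 0.000143, edgeR) and those of ARRDC3 (1.79, adjusted p = 0.0629) and ARRDC4 (1.41, adjusted p = 0.136) were lost. The doses compared at 2 h, which chose TXNIP and ARRDC4, were not part of this contrast, but the members were named with results of these data known.

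TXNIP had 731, 1039 and 589 reads in the untreated libraries and 3798, 4648 and 3166 in the emetine libraries. These correspond to 26.2, 29.8 and 27.7 CPM without emetine and to 108, 116 and 118 CPM with it. Every emetine library lay far above every untreated one, and replicates differed little within each group. The log2 difference was 2.03 (SE 0.092, edgeR adjusted p = 5.46e-05), rank 10 of 13776, and it stayed between 1.99 and 2.08 without each library in turn (adjusted p at most 0.00536). An exact two-sided permutation test gave p = 0.1, the smallest value that 3 against 3 libraries allow.

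ARRDC3, an adaptor for adrenergic receptors and integrins, had the fewest reads of the family. It had 148, 208 and 132 reads (5.31, 5.97 and 6.21 CPM) in untreated cells and 352, 485 and 432 reads (10.0, 12.2 and 16.1 CPM) in emetine-treated cells. The groups did not overlap, and emetine replicate 3 was the highest of the 6. The log2 difference was 1.13 (SE 0.19, edgeR adjusted p = 0.0209). Without emetine replicate 3 it was 0.93 (adjusted p = 0.000526), and without untreated replicate 1, 2 or 3 it stayed at 1.07, 1.15 or 1.18 while the call was lost (adjusted p = 0.138, 0.126 or 0.104).

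ARRDC4, the paralog of TXNIP, had 569, 685 and 406 reads (20.4, 19.7 and 19.1 CPM) in untreated cells. With emetine it had 940, 1236 and 1104 reads (26.8, 31.0 and 41.1 CPM). All 3 emetine libraries exceeded all 3 untreated libraries, again with emetine replicate 3 the highest. The log2 difference was 0.74 (SE 0.16, edgeR adjusted p = 0.0447), a call close to the threshold. It was 0.55 without emetine replicate 3 (adjusted p = 0.00102), and it stayed at 0.77, 0.74, 0.72 and 0.79 while the call was lost without untreated replicate 1 (adjusted p = 0.194), 2 (0.202) or 3 (0.212) or emetine replicate 2 (0.0592).

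ARRDC2 was measured at 13.7, 13.8 and 10.1 CPM in untreated cells and at 18.1, 18.5 and 15.5 CPM with emetine. The groups did not overlap, but the log2 difference of 0.47 (SE 0.15) did not pass the test (edgeR adjusted p = 0.142). It passed without emetine replicate 3 (0.54, adjusted p = 0.0111) and with the libraries without s4U included (0.53, adjusted p = 0.0424). ARRDC1 was at 38.9, 36.5 and 38.0 CPM in untreated cells and at 37.2, 36.8 and 24.9 CPM with emetine, with the low value in emetine replicate 3. Its log2 difference was -0.19 (SE 0.15, adjusted p = 0.437), and -0.03 (SE 0.070, adjusted p = 0.834) without that library.

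**Figure D2:**
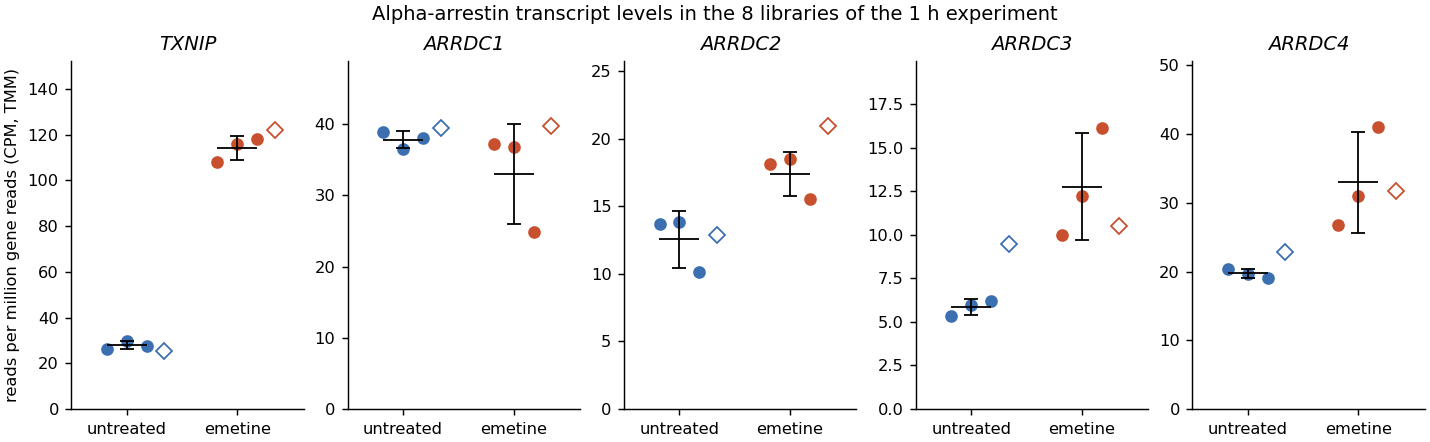
Transcript level (CPM, TMM-scaled, linear axes from 0) of each alpha-arrestin in untreated (blue) and emetine-treated (red) cells, with filled circles for the 3 libraries with s4U per group, black bars for their mean ± SD and open diamonds for the single libraries without s4U, which were scaled together with all 8. TXNIP averages 27.9 CPM in untreated and 114 CPM in emetine libraries. The untreated library without s4U lies above those with s4U for ARRDC3 (9.49 CPM), ARRDC4 (22.8 CPM) and ARRDC1 (39.4 CPM). The highest untreated libraries with s4U of these genes are at 6.21, 20.4 and 38.9 CPM.

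Exon-junction reads marked emetine replicate 3 for some members. In ARRDC3, 20.4% of its reads crossed a junction, against 5.68% and 8.25% in the other emetine libraries and 6.06% to 7.43% in untreated libraries. For ARRDC4 the share was 16.1%, against 5.53% and 6.63% with emetine and 5.67% to 9.49% without. For TXNIP it was 28.0%, against 18.7% and 19.6% with emetine and 19.4% to 23.3% without, whereas over all genes this library had 45.4% junction reads, within the 42.2% to 50.5% of the other libraries with s4U. The part of this shift in the values of replicate 3 was not tested.

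The reads of each gene were then divided into those made during the hour (labeled) and those made before it (unlabeled). For TXNIP, ARRDC3 and ARRDC4 the labeled reads rose, and for none of the 5 members did the unlabeled reads pass the test. The labeled reads were called higher for 3 of 5 members and lower for 0 of 5, against 0.26% and 0.65% of the 10763 genes tested (limma, adjusted p under 0.05). For unlabeled reads, 7.37% of genes were called higher and 0.0929% lower, and 0 of 5 members were called in either direction, with unadjusted limma p-values of 0.00402 for ARRDC3, 0.00786 for ARRDC2 and above 0.05 for the other three. The fraction new was called higher for 1 of 5 members, TXNIP, and lower for 0 of 5, against 0.214% and 4.83% of genes. Over all genes the median differences were -0.14 for labeled and 0.04 for unlabeled reads on the log2 scale, and over the members they were 1.02 and 0.34.

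Labeled TXNIP reads were at 24.1, 27.5 and 25.8 CPM in untreated cells and at 106, 113 and 115 CPM with emetine. Unlabeled TXNIP reads were at 2.12, 2.33 and 1.88 CPM and at 2.25, 3.13 and 3.07 CPM. By this estimate nearly all of the added TXNIP RNA was in the labeled class, and the unlabeled groups overlapped. The labeled difference was 2.09 on the log2(CPM + 0.5) scale (SE 0.21, limma adjusted p = 1.11e-19), rank 5 of 10763, and the unlabeled difference was 0.34 (SE 0.18, adjusted p = 0.25). These SEs and p-values draw on a spread pooled over genes, so they are not set by the TXNIP reads alone. The fraction new went from 91.9%, 92.2% and 93.2% to 97.9%, 97.3% and 97.4%, a difference in logit of 1.18 (SE 0.31, limma adjusted p = 0.0122).

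The TXNIP fraction new depended on how reads were classed. The share of TXNIP reads without any conversion was 10.5%, 9.82% and 9.85% in untreated cells and 5.90%, 4.78% and 7.08% with emetine, without overlap. In CPM, the reads without any conversion rose from 2.81 ± 0.107 to 6.77 ± 1.43 (SD, n = 3), also without overlap. The share with exactly 1 conversion was 6.57%, 5.87% and 7.47% against 10.1%, 6.54% and 10.3%, and that with 2 or more was 82.9%, 84.3% and 82.7% against 84.0%, 88.7% and 82.7%, both overlapping. With the share of 2 or more conversions in place of the mixture estimate, the logit difference for TXNIP was 0.15 (limma adjusted p = 0.701), and the reads with 0 or 1 conversion then rose by 1.74 on the log2 scale (adjusted p = 0.00152). The labeled difference was 2.04 (adjusted p = 2.38e-20) under that definition, and the fraction new call was also lost without any 1 library other than untreated replicate 1 (adjusted p 0.0611 to 0.181).

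**Figure D3:**
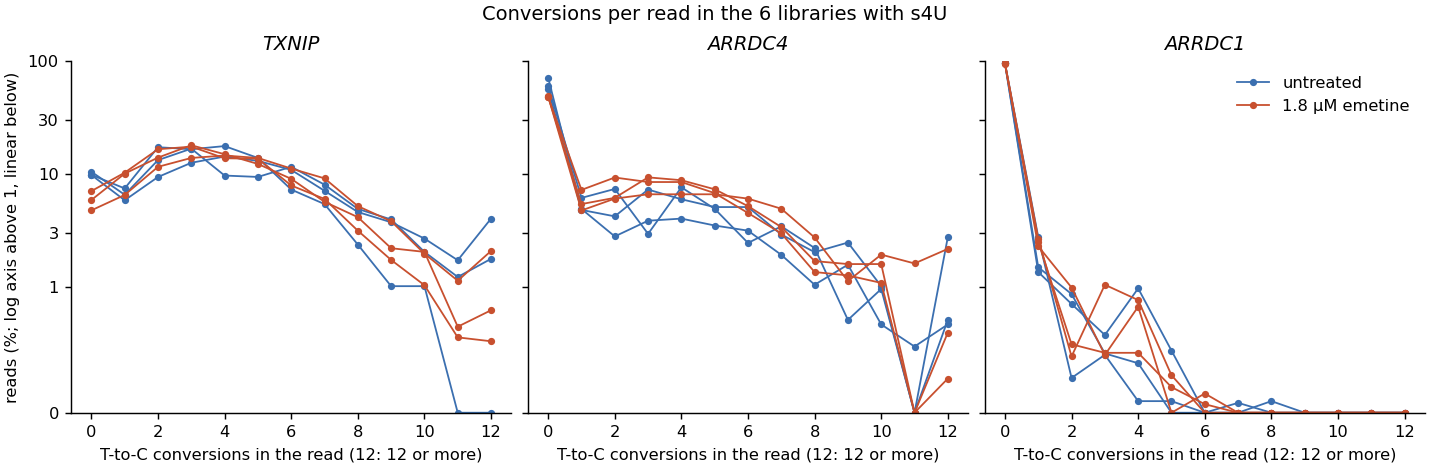
Share of reads (percent, logarithmic above 1 and linear below) by number of T-to-C conversions for TXNIP, ARRDC4 and ARRDC1 in the 3 untreated (blue) and 3 emetine (red) libraries with s4U, 1 line per library. Most TXNIP reads carry several conversions in both groups, ARRDC4 reads are divided between 0 and several, with fewer at 0 in the emetine libraries (48.1% to 48.7%) than in the untreated ones (56.2% to 71.2%), and ARRDC1 reads lie almost wholly at 0.

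Labeled ARRDC4 reads were at 5.52, 8.35 and 7.53 CPM in untreated cells and at 14.0, 15.7 and 21.9 CPM with emetine. Unlabeled ARRDC4 reads were at 14.9, 11.3 and 11.6 CPM and at 12.8, 15.3 and 19.3 CPM, so labeled groups were separate and unlabeled groups overlapped. The labeled difference was 1.21 (SE 0.24, limma adjusted p = 0.000364), rank 12 of 10763, and 1.02 without emetine replicate 3 (adjusted p = 0.123), where the call was lost. The unlabeled difference was 0.31 (SE 0.18, adjusted p = 0.281). The fraction new was 27.0%, 42.5% and 39.4% in untreated cells and 52.2%, 50.7% and 53.1% with emetine. These groups did not overlap, and the logit difference of 0.66 (SE 0.23) missed the threshold (limma adjusted p = 0.0831). It passed when each library was centred on its median over genes (0.78, adjusted p = 0.0132) and without untreated replicate 1, the lowest library (0.45, adjusted p = 0.0282).

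For ARRDC3, both labeled and unlabeled reads were higher in every emetine library than in any untreated one, and the labeled reads passed the test. Labeled reads were at 4.19, 5.45 and 5.75 CPM in untreated cells and at 8.44, 10.3 and 14.5 CPM with emetine, a log2 difference of 1.02 (SE 0.25, limma adjusted p = 0.0132). Unlabeled reads were at 1.12, 0.526 and 0.460 CPM and at 1.61, 1.82 and 1.59 CPM, a difference of 0.90 (SE 0.23, adjusted p = 0.0524). Neither pair of groups overlapped, and the fraction new of ARRDC3 did not separate the groups, with 78.9%, 91.2% and 92.6% against 83.9%, 85.0% and 90.1% (logit difference -0.20, SE 0.30, adjusted p = 0.831). The labeled call was lost without emetine replicate 1 (1.19, adjusted p = 0.0878), 2 (1.05, 0.122) or 3 (0.82, 0.541) or untreated replicate 2 (1.06, 0.261). The unlabeled reads were close in size to the 0.5 CPM added before taking logs, and their difference was 1.24 with 0.1 CPM added and 0.45 with 2 CPM added, against 1.07 and 0.86 for the labeled reads. The unlabeled difference passed the test under several alternatives, with adjusted p = 0.0114 without untreated replicate 1 the lowest.

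ARRDC2 was the only member of the 5 whose fraction new was lower in emetine-treated cells on average by more than 10 percentage points. It was 40.0%, 50.4% and 55.3% in untreated cells and 38.5%, 32.8% and 40.5% with emetine, groups that overlapped, and the logit difference of -0.46 (SE 0.23) did not pass (limma adjusted p = 0.292). It passed as the share of reads with 2 or more conversions (-0.62, adjusted p = 0.0451) and without untreated replicate 1 (-0.64, adjusted p = 0.0175). Labeled ARRDC2 reads were at 5.46, 6.96 and 5.57 CPM against 6.97, 6.08 and 6.29 CPM with emetine (difference 0.10, SE 0.25, adjusted p = 0.926). Unlabeled ARRDC2 reads were at 8.20, 6.85 and 4.50 CPM against 11.1, 12.4 and 9.25 CPM. The unlabeled groups did not overlap, with a log2 difference of 0.73 (SE 0.22, adjusted p = 0.0791) that passed without emetine replicate 3 (0.84, adjusted p = 0.0144).

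ARRDC1 had almost no labeled RNA. Its labeled reads were at 0.580, 0.852 and 1.46 CPM in untreated cells and at 1.30, 0.946 and 1.08 CPM with emetine, and its unlabeled reads were at 38.3, 35.6 and 36.6 CPM and at 35.9, 35.9 and 23.8 CPM. Both pairs of groups overlapped. The differences were 0.17 (SE 0.28, limma adjusted p = 0.873) for labeled and -0.23 (SE 0.16, adjusted p = 0.36) for unlabeled reads, and that of the logit fraction new was 0.37 (SE 0.27, adjusted p = 0.566).

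**Figure D4:**
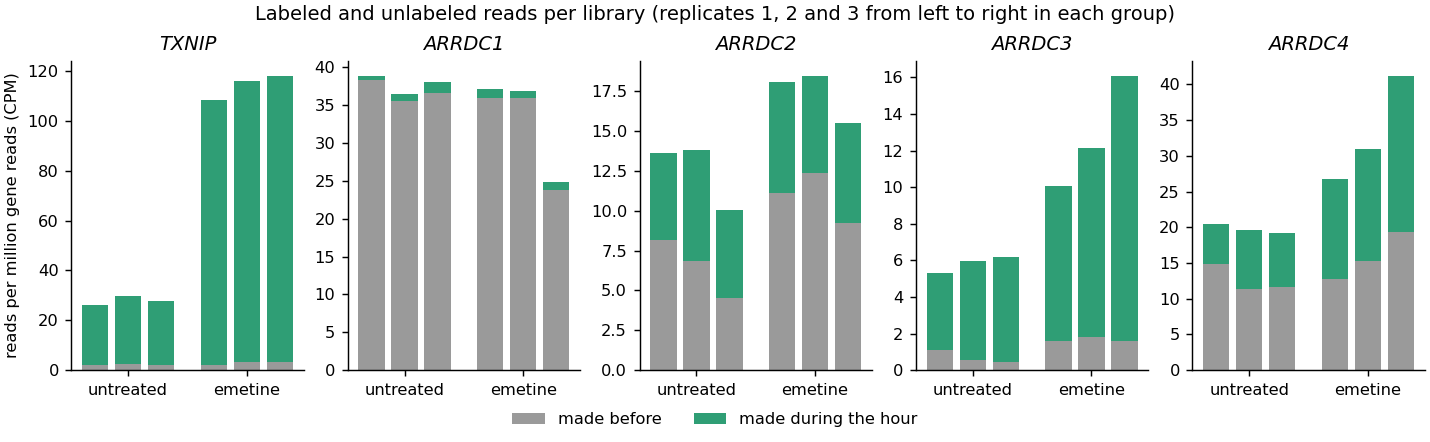
Labeled reads (green, made during the hour) stacked on unlabeled reads (grey, made before) in CPM for each alpha-arrestin, 1 bar per library with s4U. The green part grows with emetine for TXNIP, ARRDC3 and ARRDC4, the ARRDC2 bars differ mainly in the grey part, and the ARRDC1 bars are nearly all grey.

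The TXNIP and ARRDC4 differences in level were also seen between the single libraries from cells without s4U, where there is 1 library per treatment and no test within the pair. With all 8 libraries scaled together, TXNIP was at 25.4 CPM in the untreated and 122 CPM in the emetine library, a ratio of 4.80. ARRDC4 was at 22.8 and 31.8 CPM (ratio 1.39) and ARRDC2 at 12.9 and 20.9 CPM (ratio 1.63), while ARRDC1 was at 39.4 and 39.8 CPM (ratio 1.01). ARRDC3 was at 9.49 and 10.5 CPM, a ratio of 1.10, against the 2.19-fold difference with s4U.

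Whether the emetine difference itself changed with s4U was tested as an interaction in edgeR. For ARRDC3 the interaction was 0.99 on the log2 scale (SE 0.37), with an unadjusted p of 0.0263 and an adjusted p of 0.986, and it was 0.79 (adjusted p = 0.204) without emetine replicate 3. For the other four it was -0.23 for TXNIP (SE 0.18), -0.20 for ARRDC1 (SE 0.29), -0.23 for ARRDC2 (SE 0.30) and 0.26 for ARRDC4 (SE 0.31), each with an adjusted p of 0.986. Of 14102 genes, 0 (0%) passed this test, with 597 at an unadjusted p under 0.05 and 6 called by DESeq2. The level with against without s4U, over both treatments, was likewise called for 0 of 14102 genes (0%), with 673 at an unadjusted p under 0.05 and 25 called by DESeq2, and the members differed by between -0.23 (ARRDC3, SE 0.24) and 0.01 (TXNIP, SE 0.091). Without emetine replicate 3, 177 genes passed the interaction test and 41 the test of s4U, none of them a member.

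The libraries without s4U also give the background of conversions. Reads with 2 or more conversions made up 0 of 602 TXNIP reads in the untreated library, which allows a share of up to 0.498%, and 0.077% (3 of 3894 reads) in the emetine library. In the other four genes 0 or 1 such read was found per library. These limits cover counting error only. The reads of ARRDC1 with 2 or more conversions, 1.01% to 2.97% in the libraries with s4U, were thus few but above its 0.107% and 0.0787% without s4U.

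**Figure D5:**
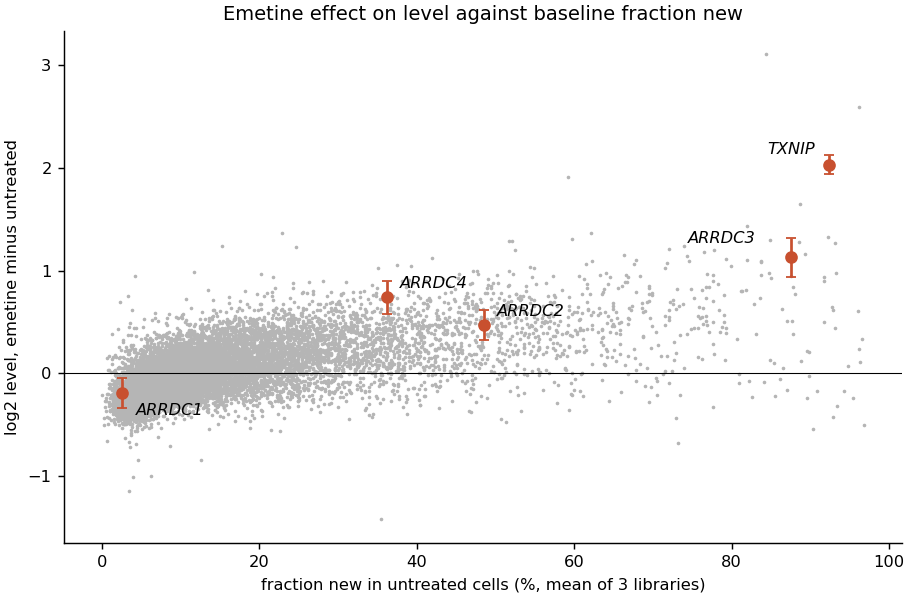
Log2 difference in level between emetine and untreated cells against the fraction new in untreated cells (percent, mean of 3 libraries) for the 10763 genes tested for both (grey), with the 5 alpha-arrestins in red and bars of ± 1 SE. TXNIP (2.03) and ARRDC3 (1.13) lie among the genes of high fraction new at the right, and ARRDC1 (-0.19) lies at the left.

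In the 2 h experiment only the mean of the normalized counts, which the authors took over all 2 h libraries after spike-in scaling, was used here, and it has no spread per group. These libraries were made from the 2 h treatments at both doses as well as untreated cells. The authors' mean was 1283 for ARRDC3, 1012 for TXNIP, 706.6 for ARRDC4 and 170.1 for ARRDC1. Per kilobase of canonical transcript these values were 303, 348, 174 and 109, so ARRDC1, first in the untreated 1 h libraries per length, was last of the 4 listed here. The kits described for the experiments differ, with poly(A) RNA at 1 h and total RNA at 2 h, and the part of this in the order was not tested.

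The partners of the alpha-arrestins were compared with the same test of level. Of 9 NEDD4-family ubiquitin ligases, 8 were tested, and 0 were called. SMURF1, which targets SMAD and RhoA proteins, was at 26.0 ± 2.40 CPM in untreated cells and 35.9 ± 4.45 with emetine (log2 difference 0.46, adjusted p = 0.0911, edgeR), ITCH differed by 0.36 (adjusted p = 0.259) and HECW2 by 0.42 (adjusted p = 0.281). The median over the 8 ligases was 0.28, with 7 of 8 above 0, beside 0.03 over all genes. The ligases were not compared without emetine replicate 3, and a shift of the list as a whole was not tested. Of the other arrestin-fold genes, 6 of 9 were tested and 0 called: the retromer subunits VPS26B and VPS26A differed by -0.18 (adjusted p = 0.242) and -0.12 (adjusted p = 0.382), and the beta-arrestin gene ARRB2 by -0.10 (adjusted p = 0.553).

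The regulators and targets of TXNIP showed no called difference in level. All 3 of the Mondo and MLX genes were tested and 0 were called: MLXIP, which encodes MondoA, was at 109 ± 5.31 CPM in untreated cells and 109 ± 8.67 with emetine (adjusted p = 1.0, edgeR), MLXIPL differed by 0.27 (adjusted p = 0.346) and MLX by -0.05 (adjusted p = 0.765). Of 12 thioredoxin and peroxiredoxin genes, 0 were called, and 11 of the 12 lay at or below 0.00. Their median was -0.28, beside 0.03 over all genes, and they were not compared without emetine replicate 3. The peroxiredoxins PRDX5, PRDX2 and PRDX4, which reduce peroxides with electrons from thioredoxin, differed by -0.38 (adjusted p = 0.188), -0.40 (adjusted p = 0.21) and -0.35 (adjusted p = 0.221). Their SDs were 18.4, 59.4 and 19.5 CPM in untreated libraries and 48.9, 118 and 58.8 CPM with emetine. Of 6 glucose uptake genes 5 were tested and 0 called: SLC2A1, which encodes the TXNIP cargo GLUT1, differed by -0.24 (adjusted p = 0.174), the hexokinase gene HK2 by 0.28 (adjusted p = 0.267) and SLC2A3 by -0.32 (adjusted p = 0.433). Of 8 ESCRT genes of the ARRDC1 vesicle route, 8 were tested and 0 called, with a median of 0.03. VPS4B and VPS4A, the ATPases that take ESCRT filaments apart, differed by 0.33 (adjusted p = 0.199) and -0.18 (adjusted p = 0.273), and VPS37B by 0.15 (adjusted p = 0.282). In none of these 6 lists was the fraction new called for any gene tested. Labeled reads were called lower for PRDX2 (-1.05 on the log2 scale, limma adjusted p = 0.00584) and for PRDX1 (-0.85, adjusted p = 0.0241), which was named after its values were seen, and for no other gene of these lists.

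The genes whose level pattern over the 8 libraries was nearest to that of TXNIP were found by the root mean square difference of log2(CPM + 0.5), centred on the mean of each gene, among 13074 genes. They were ATF3 at 0.26, a stress-induced transcription factor, DUSP1 at 0.29, a MAP kinase phosphatase, TYW1B at 0.34, the histone gene HIST1H3D at 0.38 and the immediate early gene EGR1 at 0.38. Their differences in level were 1.91, 2.59, 1.58, 2.18 and 1.70 on the log2 scale. The fraction new in untreated cells was 96.2% ± 1.15 for DUSP1, 74.9% ± 9.32 for EGR1 and 59.2% ± 11.5 for ATF3. It was 43.1% ± 10.7 for TYW1B and 9.78% ± 10.4 for HIST1H3D, so genes alike in level were not alike in untreated fraction new. With emetine the mean was higher for each of them, as for TXNIP. It was 98% ± 0.689 for DUSP1, 88.3% ± 3.01 for EGR1 and 71.4% ± 1.75 for ATF3. For TYW1B it was 50% ± 5.49 and for HIST1H3D 81.5% ± 7.17. The logit difference did not pass for ATF3 (0.53, limma adjusted p = 0.272) or DUSP1 (0.69, adjusted p = 0.271). TYW1B, EGR1 and HIST1H3D had too few reads for the fraction new test.

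The 5 genes nearest to ARRDC4 were ZNF436 at 0.060, ZNF382 at 0.069, POLQ at 0.076, EPG5 at 0.077 and YEATS2 at 0.078, among them 2 zinc finger genes and the DNA polymerase theta gene. Because they were chosen by level, their differences in level, from 0.61 to 0.81, had to lie close to the 0.74 of ARRDC4. None of them passed the level test (edgeR adjusted p 0.0516 to 0.101). Their fraction new went the other way from that of ARRDC4: ZNF436 was at 69.9% ± 7.62 in untreated cells and 32.8% ± 1.80 with emetine (logit difference -1.58, limma adjusted p = 3.39e-06), and POLQ at 29.8% ± 7.37 and 16.7% ± 2.67 (-0.74, adjusted p = 0.0245). The other three were also lower with emetine on average (EPG5 -0.55 with adjusted p = 0.159, YEATS2 -0.53 with adjusted p = 0.178, and ZNF382 from 61.1% ± 15.6 to 27.8% ± 1.51, not tested), whereas ARRDC4 was at 36.3% ± 8.17 and 52.0% ± 1.25.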

How the data were processed

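The members and gene lists were chosen with earlier results of these data known. For the 1 h experiment, the authors trimmed reads with cutadapt, aligned them to hg38 (hisat-3n) and tallied converted T positions read by read (bam2bakR). The deposited counts are whole numbers of reads, not normalized. For the 2 h experiment, the deposited signal values are the authors' mean of spike-in normalized counts over all libraries. The authors' own fold changes, errors and p-values in those tables were not used, so no 2 h comparison was made.

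Counts were added up by gene, and the 3 emetine libraries were set against the 3 untreated ones in edgeR 4.0.16 (TMM, quasi-likelihood test) for genes with more than 100 counts. The fraction new is the weight of a 2-component binomial mixture, with the background rate (0.0504% or 0.0521%) from the library without s4U and the rate in new reads (8.49% to 9.53%) fitted to each library. Its logit, and labeled and unlabeled CPM with 0.5 CPM added, were compared with limma 3.58.1 (trend, robust) where each library held 100 or more reads of the gene. bakR was not run. Adjusted p-values are Benjamini-Hochberg values over all genes tested, called under 0.05. The tests were checked on simulated data. Alternatives covered DESeq2 1.42.0, spike-in scaling, filters, added CPM, rates, the mixture, a replicate block and each library left out. Named are all members, for each list the 3 genes with the smallest p in the level test, and the 5 genes most like TXNIP and ARRDC4.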

Additional observations from a re-analysis of the deposited data

How the results depend on the processing

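The TXNIP level and labeled differences kept their direction and call under all alternatives run (1.99 to 2.69 and 2.03 to 2.14 on the log2 scale), while those of ARRDC3 and ARRDC4 lost calls when libraries were left out. Deviations in level were not shared by same-numbered libraries (correlations 0.07, -0.01 and -0.18, against -0.25 to 0.16 for the other pairs). In depth, however, replicate 2 was the highest and replicate 3 the lowest in untreated and in emetine libraries alike. A batch shared by replicate number was not tested beyond the block. With the replicate block, 78 genes in place of 369 passed for level and 366 in place of 803 for unlabeled reads, but 687 in place of 543 for fraction new. The call lost among members was the ARRDC4 level (0.72, edgeR adjusted p = 0.0954). The TXNIP fraction new stayed called (1.18, limma adjusted p = 0.00115). Spike-in scaling shifted the median of all genes to 0.71 and left 60 level calls. Relative to that shift TXNIP was at 1.98, ARRDC3 at 1.08, ARRDC4 at 0.70, ARRDC2 at 0.41 and ARRDC1, which turned from -0.19 to 0.48 before the shift was subtracted, at -0.23. The shares of single spike-in RNAs differed between treatments without overlap for 23 of 29 (ratios 0.187 to 2.28), and the cause was not tested.

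DESeq2 called 976 genes for level (820 higher, 156 lower, against 363 and 6), 25 for s4U and 6 for the interaction, and with all 8 libraries 676 level calls were made. Fraction new calls, 543 in the report, numbered 312 at 50 reads or more, 241 at 500 and 874 when centred (126 higher and 748 lower, against 23 and 520). Calls of labeled reads were 98, and 192 with reads of 2 or more conversions, and unlabeled calls were 231 at 500 reads. For s4U, 2 genes passed without a filter and 35 in untreated libraries alone. Leaving out 1 library gave 4 to 1892 level calls, 108 to 2565 for fraction new, 15 to 1828 for labeled and 270 to 1828 for unlabeled reads, 0 to 41 for s4U and 0 to 177 for the interaction. The highest counts came without emetine replicate 3 or, for fraction new and labeled reads, without untreated replicate 1. The cause of these moves was not tested, and some of the settings also changed the number of samples or genes.

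Differences near 0 that changed sign were ARRDC3 fraction new (0.04 without untreated replicate 3), ARRDC1 labeled reads (-0.02 without untreated replicate 1), ARRDC2 labeled reads (-0.14 with 2 or more conversions), and the s4U difference without the untreated library lacking s4U (TXNIP -0.10, ARRDC3 0.28, ARRDC4 0.05), without untreated replicate 2 (TXNIP -0.02) and without emetine replicate 3 (TXNIP -0.01). Over the libraries left out in turn, ARRDC3 fraction new ran from -0.57 to 0.04, ARRDC1 labeled reads from -0.02 to 0.41, and the s4U difference from -0.10 to 0.13 for TXNIP, from -0.71 to 0.28 for ARRDC3 and from -0.22 to 0.05 for ARRDC4. Scaling labeled and unlabeled reads over all 8 libraries, chosen after the data were seen, brought unlabeled ARRDC3 past the threshold (0.91, adjusted p = 0.0472). ARRDC3 had the fewest reads of the members, 132 to 485 per library with s4U, and the effect of depth on its values was not tested.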
